A study of Mus musculus with 12 samples.

Results

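The Rab GTPases are described here as they were transcribed in sorted peritoneal macrophages of mice with and without the phagocytic receptor Tim4. A gene was a member when its symbol in the GENCODE vM21 annotation was Rab followed by a number and at most a letter and a digit, when it was protein-coding, and when its raw count averaged at least 10 over the 12 libraries. Of the 57010 rows of the count table, 59 carried such a symbol and 47 of them were members. The other 12, all protein-coding, lay below the minimum. The members nearest to it inside were Rab30 with a mean of 10.4 counts and Rab40b with 12, and the nearest outside were Rab38 and Rab42 with 9.17 each. All 47 members passed the filter on low counts that was applied before testing. Members were sorted by their best known route into 7 of the early endosome, 8 of the late endosome and phagosome, 9 of recycling, 19 of the secretory pathway and 4 that were other or not assigned.

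The study sorted large peritoneal macrophages, the resident F4/80-high, MHC class II-low macrophages of the peritoneal cavity, from female mice. Its 4 groups crossed genotype, wild type (WT) or knockout of Tim4 (Tim4KO), with condition, and each held 3 RNA-seq libraries. Naive mice were unchallenged, per their label. ID8 mice were 8 weeks old when they were injected intraperitoneally with ID8ZGO, the ID8 mouse ovarian tumour line carrying ZsGreen and OVA, and their cells were taken 24 h later. From ID8 mice only ZsGreen-positive macrophages were sorted, so challenge and uptake of tumour material cannot be told apart. The age of the naive mice, the form of the Tim4 allele and the number of mice behind a library are not given in the sources used here, so p-values measure the spread between these libraries, which may be technical.

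Library totals ran from 7358559 to 23170244 counts. Levels are given as CPM, the read count normalised to library size with TMM factors, and a count of 3 corresponded to 0.130 to 0.408 CPM. Such a floor covers counting error only. Timd4, which encodes Tim4, lay between 882.5 and 1489 CPM in the WT libraries and between 1.38 and 7.71 CPM in the Tim4KO libraries, matching each library's label. All 13 markers of large peritoneal macrophages, Timd4 among them, were detected. Gata6 lay between 120.2 and 193.8 CPM and Adgre1, which encodes F4/80, between 2569 and 6299 CPM. The markers did not all hold their level. In WT naive and WT ID8, Alox15 averaged 11290 ± 660 and 5493 ± 644 CPM and Prg4 3651 ± 740 and 2405 ± 360 CPM (SD, n = 3). Adgre1 went the other way, at 3157 ± 611 and 4747 ± 1345 CPM. Epithelial or tumour genes summed to 6.01 to 25 CPM in naive and 1.1 to 6.28 CPM in ID8 libraries. Library WT ID8 3 stood apart: genes of proliferation, a list chosen after the data were seen, summed to 1875 CPM there against 256.7 to 406.4 CPM in the other ID8 libraries. Reads in 1713 olfactory and vomeronasal receptor genes, used as a measure of background, were fewest in WT ID8 3, with 5.57 CPM, and most in WT naive 1, with 862 CPM. Calls that came or went when WT ID8 3 was left out are given with the members concerned.

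Rab proteins are small GTPases that switch between a GTP-bound form, which recruits motors, tethers and fusion factors to a membrane, and a GDP-bound form, which is extracted from it. Guanine nucleotide exchange factors load them and GTPase-activating proteins switch them off. A phagosome with an engulfed cell is known to acquire Rab5 first and Rab7 later as it matures towards the lysosome, while Rab4, Rab10, Rab11 and Rab35 return membrane and receptors to the surface and Rab1, Rab2 and Rab6 serve traffic between the endoplasmic reticulum and the Golgi.

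Levels were compared between members per exonic length, as CPM per kilobase of exon. In WT naive cells the most abundant member was Rab32, a regulator of lysosome-related organelles, at 134 ± 4.78 CPM per kilobase (SD, n = 3). It was followed by Rab2a (113 ± 6.92), the endosomal Rab31 (111 ± 10.8), Rab7 (108 ± 5.90) and Rab8b (104 ± 10.4). Rab32 did not overlap with Rab2a, whereas neighbours from Rab2a down to Rab8b overlapped, and Rab8b in turn was apart from Rab1b. Of the 46 neighbouring pairs in WT naive, 36 overlapped and 10 were apart. The least abundant members were Rab3c at 0.204 ± 0.143 and Rab30 at 0.131 ± 0.0483 CPM per kilobase.

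**Figure D1:**
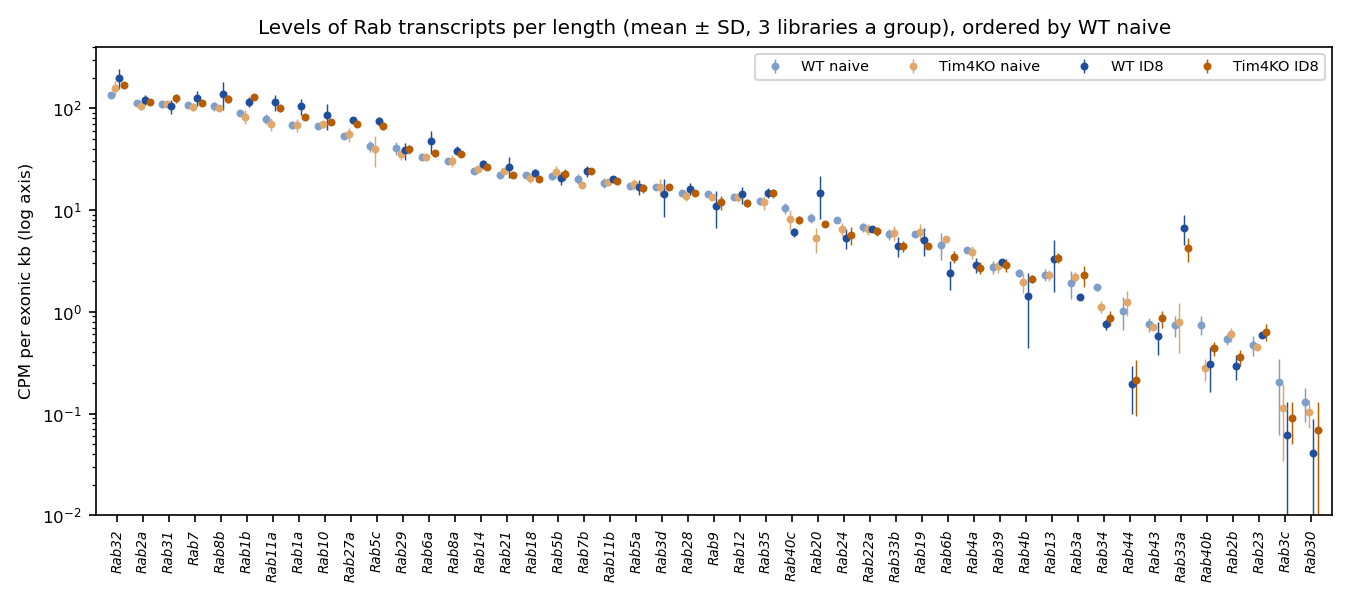
Level of each of the 47 Rab members, as CPM per exonic kilobase on a log axis, ordered by the mean in WT naive; points are means and bars the SD over 3 libraries in each of the 4 groups, and a bar that reaches the lower edge ends below the axis. Rab32 leads in all 4 groups, and the ID8 points lie far above the naive ones for Rab33a and far below them for Rab44.

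Rab32 ranked first in all 4 groups. The same 8 members, namely Rab32, Rab2a, Rab31, Rab7, Rab8b, Rab1b, Rab11a and Rab1a, filled the first 8 ranks in WT naive and in WT ID8. Summed over the 47 members, the level went from 1362 ± 58.2 CPM per kilobase in naive to 1684 ± 228 in ID8 cells of WT mice, and from 1345 ± 122 to 1562 ± 65.9 in those of Tim4KO mice (SD, n = 3). Secretory members made up 40.7 ± 0.792% of this sum in WT naive and 41.7 ± 0.897% in WT ID8. Late endosome and phagosome members held 24.2 ± 0.857% and 24.3 ± 0.620%, and early endosome members 16.9 ± 0.883% and 15.7 ± 0.165%.

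The challenge comparisons asked how transcripts of ZsGreen-positive macrophages from ID8 mice differed from those of naive macrophages, within each genotype. A member was called when the Benjamini-Hochberg adjusted p of edgeR's quasi-likelihood test, over all 15943 genes tested, was under 0.05. In WT, 14 of 47 members were called, 9 higher and 5 lower after ID8. This was 29.8% of the members against 31.8% of all genes tested, or 19.1% against 19.5% higher and 10.6% against 12.3% lower. In Tim4KO, 6 members were called, 5 higher and 1 lower, which was 12.8% against 16.6% of all genes, with 11.5% of all genes called higher and 5.06% lower. The share of Rab genes called was near the background in both genotypes. At an unadjusted p under 0.05 by edgeR, 20 members passed in WT (42.6% against 45.5% of all genes) and 11 in Tim4KO (23.4% against 29.9%). The 3 ID8 and 3 naive libraries did not overlap for 9 members higher and 9 lower in WT, where 23.3% and 21% of all genes did so, and for 13 higher and 7 lower in Tim4KO, where 23.7% and 18.1% did. Rab33a, Rab5c, Rab11a and Rab1b were called higher and Rab44 lower in both comparisons, 10.6% of the members against 13.2% of all genes called in both. The comparisons use separate libraries.

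The members that were higher were mostly abundant ones. Among the 26 members with a mean raw count of 500 or more, a split chosen after the values were seen, 8 were called higher and 0 lower in WT, which was 30.8% and 0% against 36.5% and 8.35% of all tested genes of that abundance. The median log2 change was 0.24 for these members and 0.24 for those genes. Among the 21 members under 500 counts, 1 was called higher and 5 lower in WT, which was 4.76% and 23.8% against 12.5% and 13.9% of all genes tested under 500 counts, with a median of -0.48 against -0.25. In Tim4KO the medians were 0.13 and -0.18 for the members and 0.14 and -0.17 for all genes. Background reads ran from 314.1 to 862 CPM in the naive and from 5.57 to 245.9 CPM in the ID8 libraries of WT mice, with no overlap, and from 264.3 to 470 CPM and 39.5 to 352.7 CPM in those of Tim4KO mice. With the background measure as a covariate 14 members were again called in WT, 8 higher and 6 lower, but these were not the same genes, and the share of all genes was lower, 21.4% against 29.8% of the members. Rab8a, Rab1b, Rab27a, Rab6b and Rab24 were lost and Rab3d, Rab10, Rab20, Rab4b and Rab9 gained under the covariate.

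Scaling moved the direction of the WT calls. With upper-quartile factors, under which the median of all genes fell from -0.04 to -0.28, 3 members were called higher and 11 lower, and the median of the members went from 0.08 to -0.17. Of the higher calls in WT, those of Rab33a, Rab5c and Rab1a stayed, and those of Rab8a, Rab11a, Rab32, Rab1b, Rab6a and Rab27a were lost. In Tim4KO the calls of Rab11a and Rab7b were lost with these factors. No called member changed sign. Deviations of same-numbered WT naive and WT ID8 libraries were positively correlated, which does not show that these libraries are pairs. A fit to the WT libraries alone with the replicate number as a block called 7 members. They were Rab33a, Rab5c and Rab1a as higher and Rab44, Rab34, Rab40c and Rab24 as lower. Without the block that fit called 9, since Rab8a, Rab11a, Rab32, Rab1b and Rab6a already missed the threshold when the WT libraries were fitted alone, at adjusted p of 0.189, 0.0664, 0.0609, 0.158 and 0.118 by edgeR. The block then ended the calls of Rab27a (0.43) and Rab6b (-1.04), at adjusted p of 0.0586 and 0.0570 by edgeR. With the block over all 4 groups 12 members were called, and Rab8a and Rab1b were lost.

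**Figure D2:**
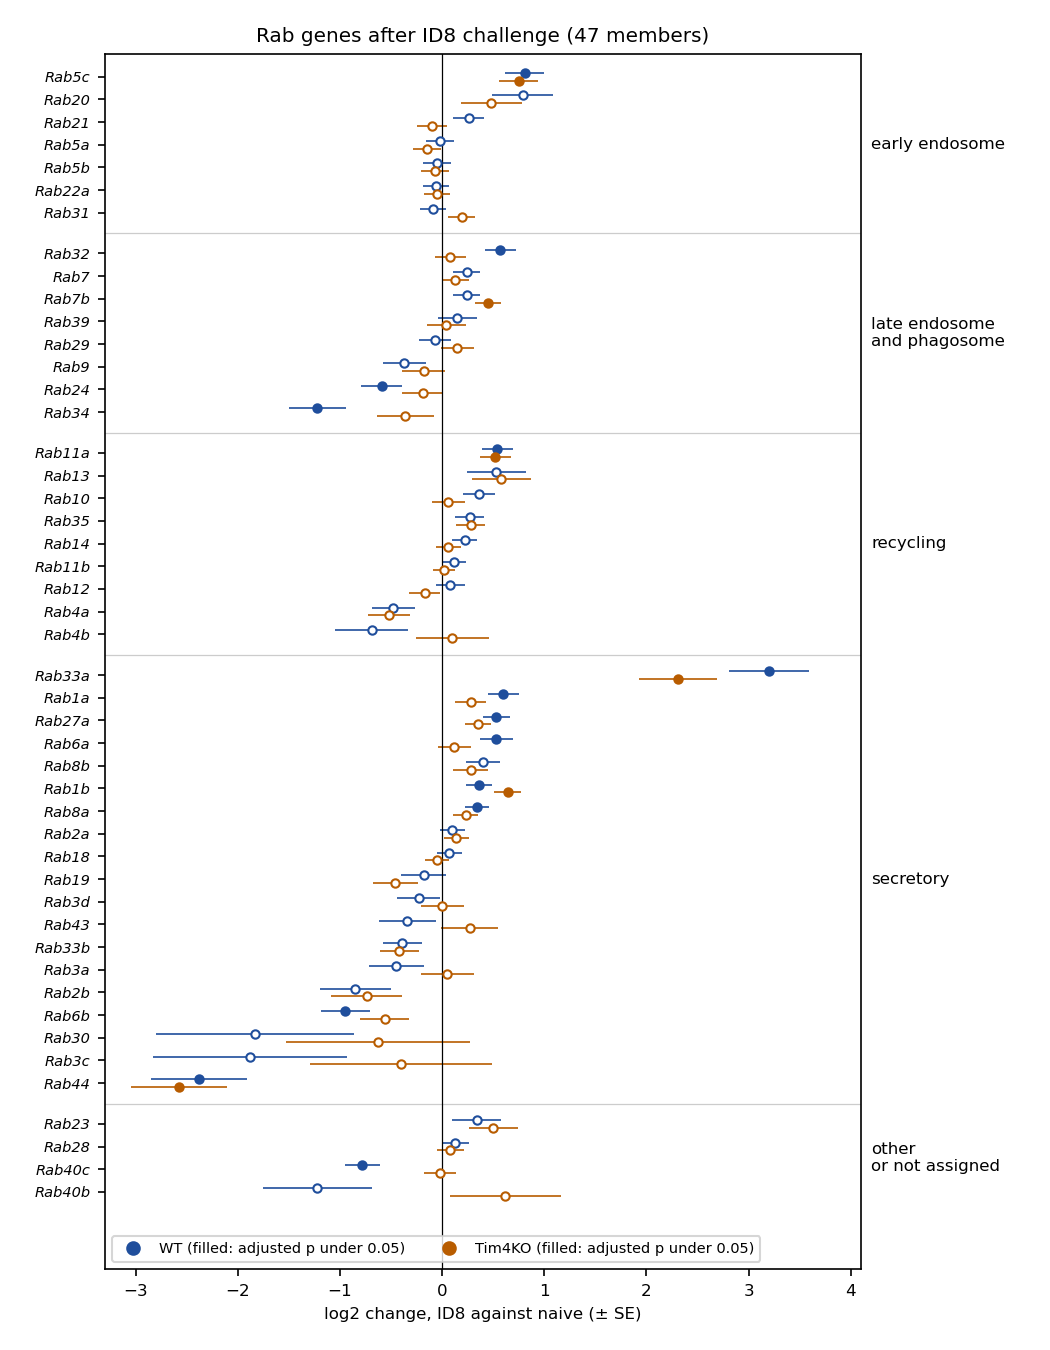
Log2 change (± SE) of each Rab member after ID8 challenge, grouped by route, in WT (blue) and Tim4KO (orange); filled points are called at an adjusted p under 0.05 by edgeR. Rab33a lies at 3.20 and 2.31 and Rab44 at -2.38 and -2.58, while most other members lie within 1 log2 unit of 0 in both genotypes.

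Whether the 4 members called higher in both genotypes are regulated together was not tested. Their promoters are shown here because of that shared call. Each runs from 250 bases before to 50 bases after the transcription start in RefSeq (GRCm38.p6), 5′ to 3′ on the gene's strand, with GC boxes (GGGCGG on either strand) in capitals. Rab33a is at chrX:48519035-48519334 (+), Rab5c at chr11:100738166-100738465 (-), Rab11a at chr9:64737707-64738006 (-) and Rab1b at chr19:5106947-5107246 (-).
Rab33a: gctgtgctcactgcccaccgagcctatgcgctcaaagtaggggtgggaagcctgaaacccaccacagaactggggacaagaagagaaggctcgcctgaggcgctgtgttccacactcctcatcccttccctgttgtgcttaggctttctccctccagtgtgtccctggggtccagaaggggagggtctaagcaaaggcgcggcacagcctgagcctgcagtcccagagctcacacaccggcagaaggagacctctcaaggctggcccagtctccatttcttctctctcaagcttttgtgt
Rab5c: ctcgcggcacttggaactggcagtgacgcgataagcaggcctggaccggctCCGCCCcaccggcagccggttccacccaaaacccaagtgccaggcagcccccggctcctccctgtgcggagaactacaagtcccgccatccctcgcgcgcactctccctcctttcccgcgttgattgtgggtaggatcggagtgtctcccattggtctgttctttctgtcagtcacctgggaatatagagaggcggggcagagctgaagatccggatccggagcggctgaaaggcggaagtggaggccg
Rab11a: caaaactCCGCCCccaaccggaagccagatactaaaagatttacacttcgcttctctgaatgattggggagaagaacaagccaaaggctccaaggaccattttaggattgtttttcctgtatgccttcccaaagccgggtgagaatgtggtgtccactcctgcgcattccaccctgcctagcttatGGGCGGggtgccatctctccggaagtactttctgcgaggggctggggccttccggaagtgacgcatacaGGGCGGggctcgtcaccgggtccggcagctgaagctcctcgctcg
Rab1b: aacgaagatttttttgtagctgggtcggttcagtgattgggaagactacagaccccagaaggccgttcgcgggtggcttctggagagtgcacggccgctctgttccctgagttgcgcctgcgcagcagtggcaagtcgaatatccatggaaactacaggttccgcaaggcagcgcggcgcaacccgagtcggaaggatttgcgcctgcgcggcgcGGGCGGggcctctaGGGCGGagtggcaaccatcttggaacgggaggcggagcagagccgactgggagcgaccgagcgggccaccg
None of the 4 windows held an E-box (CACGTG) or an AP-1 motif (TGANTCA, where N is any base), both searched on both strands. The Rab33a window held no GC box, that of Rab5c 1, that of Rab11a 3 and that of Rab1b 2. Windows were found for 41 of the 47 members, 50 windows in all, and Rab18, Rab2a, Rab30, Rab44, Rab4a and Rab7b had none in the table used. A GC box was in 72% of the members' windows against 35.7% of all 32851 windows, an E-box in 12% against 7.15% and an AP-1 motif in 2% against 7.81%. The median GC content of the members' windows was 63% against 52.7% of all windows. The E-box windows belonged to Rab20, Rab21, Rab23, Rab24, Rab27a and Rab5a, and the AP-1 window to Rab34. None of the 3 motifs is contained in another, and a match describes the letters only.

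Among early endosome members, Rab5c was the 1 called. Rab5 proteins drive homotypic fusion of early endosomes and mark young phagosomes. Rab5c stood at 96.8, 102 and 80.9 CPM in the naive and 158, 184 and 149.7 CPM in the ID8 libraries of WT mice, and at 121, 67.0 and 75.2 CPM in the naive and 159.9, 133 and 150.2 CPM in the ID8 libraries of Tim4KO mice. Every ID8 library was above every naive library, although Tim4KO naive 1 was well above the other Tim4KO naive ones. Its log2 change was 0.81 (SE 0.19, edgeR adjusted p = 0.00499) in WT and 0.75 (SE 0.19, edgeR adjusted p = 0.0135) in Tim4KO. The Tim4KO call was lost without Tim4KO naive 2 (0.61, edgeR adjusted p = 0.0785), without Tim4KO naive 3 (0.67, edgeR adjusted p = 0.0663) and without Tim4KO ID8 1 (0.70, edgeR adjusted p = 0.0533).

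Of the Rab5 paralogs, Rab5c alone was called, and the difference between paralogs was described without a test. Rab5a and Rab5b had log2 changes of -0.02 and -0.05 in WT and of -0.15 and -0.07 in Tim4KO, none called. Of the summed level of the 3 paralogs per length, Rab5c held 52.4 ± 1.46% in WT naive and 66.5 ± 1.68% in WT ID8 (SD, n = 3). In Tim4KO it held 48.2 ± 8.50% in naive and 63.4 ± 0.410% in ID8. Its share was higher in every ID8 library than in every naive library of the same genotype.

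**Figure D3:**
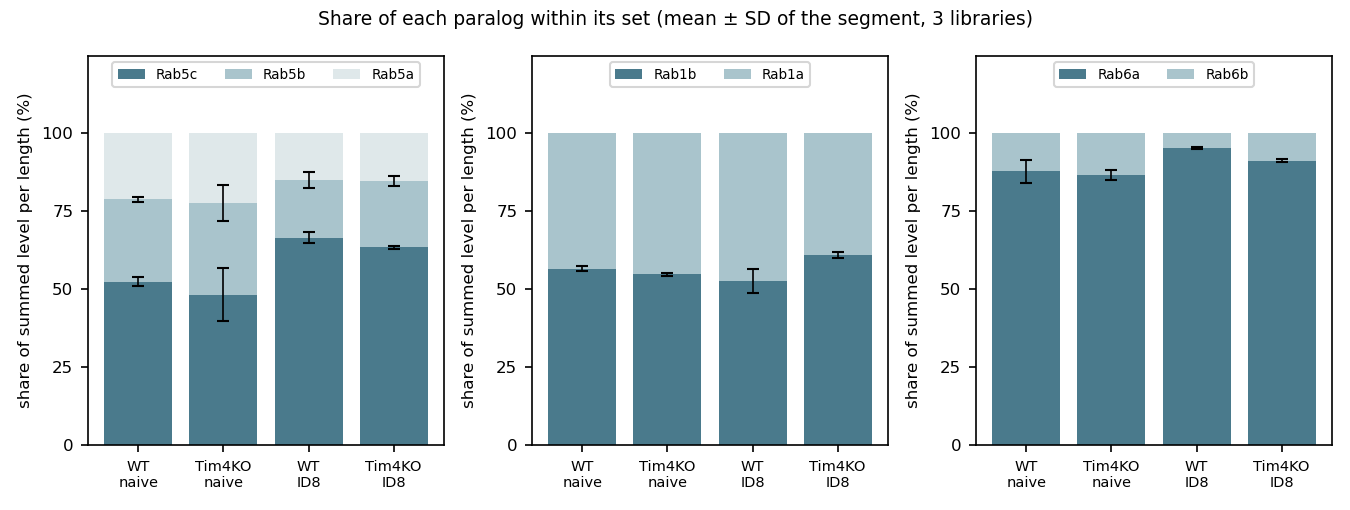
Share of each paralog in the summed level per exonic length of its set, in percent, for Rab5a, Rab5b and Rab5c, for Rab1a and Rab1b, and for Rab6a and Rab6b; bars are means over 3 libraries and error bars the SD of the segment below them. The Rab5c segment grows from 52.4% to 66.5% in WT and the Rab6a segment from 87.8% to 95.3%.

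Rab20, which is linked to phagosome maturation in macrophages, was at 10.7, 11.3 and 13.2 CPM in the naive and 27.5, 24.0 and 10.1 CPM in the ID8 libraries of WT mice, and at 5.25, 7.46 and 9.24 CPM in the naive and 10.5, 9.97 and 10.1 CPM in the ID8 libraries of Tim4KO mice. The first and second WT ID8 libraries were above all others, while WT ID8 3 was at the level of Tim4KO ID8. Expressed as log2 change, the difference was 0.79 in WT (SE 0.30, edgeR adjusted p = 0.0548) and 0.48 in Tim4KO (SE 0.30, edgeR adjusted p = 0.326). Without WT ID8 3 the WT change was 1.15 (SE 0.20, edgeR adjusted p = 5.42e-05), and it was called. Rab20 was also called in WT when no low-count filter was used (0.88), with the background measure as a covariate (1.31), and without Tim4KO naive 1 (0.83) or 3 (0.81). Its exons overlap those of E230013L22Rik on the opposite strand, and whether counting used strand is not given in the sources used here.

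Rab21, which guides integrins through early endosomes, was at 107, 116 and 114 CPM in the naive and 142, 162 and 101 CPM in the ID8 libraries of WT mice, and at 116, 130.4 and 117 CPM in the naive and 115, 109 and 113 CPM in the ID8 libraries of Tim4KO mice. The WT groups overlapped through WT ID8 3, the lowest of its group. Its log2 changes of 0.26 in WT and -0.10 in Tim4KO were not called, but without WT ID8 3 the WT change was 0.46 (edgeR adjusted p = 0.0194). Rab22a and Rab31, which serve early endosomes and their supply from the Golgi, had log2 changes of -0.06 and -0.09 in WT and -0.05 and 0.19 in Tim4KO, and neither was called. With upper-quartile factors Rab31 was called lower in WT (-0.34, edgeR adjusted p = 0.0448).

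In the late endosome and phagosome route, Rab32 was called higher and Rab34 and Rab24 lower in WT, and Rab7b higher in Tim4KO. Rab32 was at 311, 304 and 326 CPM in the naive and 389, 579.8 and 428 CPM in the ID8 libraries of WT mice, and at 439.6, 342 and 335 CPM in the naive and 396, 397 and 385 CPM in the ID8 libraries of Tim4KO mice. WT naive was the group below all others, and Tim4KO naive 1 was above every Tim4KO ID8 library. On the log2 scale the change was 0.57 in WT (SE 0.15, edgeR adjusted p = 0.0108) and 0.08 in Tim4KO (SE 0.15, edgeR adjusted p = 0.764). Their difference was -0.49 (SE 0.21, edgeR adjusted p = 0.668 for the interaction), which was not called.

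Rab34, which takes part in phagosome maturation and macropinocytosis, was at 4.33, 3.81 and 4.40 CPM in the naive and 1.96, 1.55 and 1.87 CPM in the ID8 libraries of WT mice, and at 2.30, 2.93 and 2.82 CPM in the naive and 2.0, 2.49 and 1.79 CPM in the ID8 libraries of Tim4KO mice. The WT naive libraries were above all 9 others. The log2 change in WT was -1.22 (SE 0.28, edgeR adjusted p = 0.00433), and in Tim4KO it was -0.36 (SE 0.28, edgeR adjusted p = 0.417). Without a filter on low counts the WT adjusted p was 0.0512. The level of Rab34 rests on 17 to 63 counts per library.

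Rab7b, a late endosomal relative of Rab7 that serves transport towards the Golgi, was at 96.7, 103 and 81.4 CPM in the naive and 124, 111 and 96.6 CPM in the ID8 libraries of WT mice, and at 86.8, 74.7 and 83.2 CPM in the naive and 116, 114 and 104 CPM in the ID8 libraries of Tim4KO mice. The Tim4KO groups did not overlap and the WT groups did. The log2 change was 0.45 in Tim4KO (SE 0.13, edgeR adjusted p = 0.0305) and 0.24 in WT (SE 0.13, edgeR adjusted p = 0.167), with an interaction of 0.21 (edgeR adjusted p = 0.767). The Tim4KO call was lost without Tim4KO naive 2 or 3 or without any 1 of the Tim4KO ID8 libraries, with changes of 0.40 to 0.51. That call was also lost with upper-quartile factors and without a filter on low counts. Rab7 itself, which brings phagosomes to lysosomes, was at 281 ± 15.4 CPM in WT naive and 333 ± 57.1 in WT ID8 (SD, n = 3), a log2 change of 0.24 that was not called.

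Rab24, known from autophagy, was at 16.5, 16.2 and 15.4 CPM in WT naive and 13.3, 10.1 and 8.72 in WT ID8, with no overlap. Its log2 change of -0.59 (SE 0.20, edgeR adjusted p = 0.0359) was called in WT, but the call was lost without 9 of the 12 libraries, among them WT naive 1, 2 and 3 and WT ID8 2 and 3, where the change was -0.59 to -0.44. Its exons overlap those of Prelid1 on the opposite strand. Rab9, which returns mannose 6-phosphate receptors to the Golgi, was at 15.0 and 14.9 CPM in WT ID8 1 and 2 and at 28.2 in WT ID8 3, and its change of -0.37 was called only without the last (-0.74, edgeR adjusted p = 0.00186), with upper-quartile factors and with the background covariate. Rab29, a partner of the kinase LRRK2, and Rab39 had log2 changes between -0.07 and 0.15 in both genotypes and were not called.

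**Figure D4:**
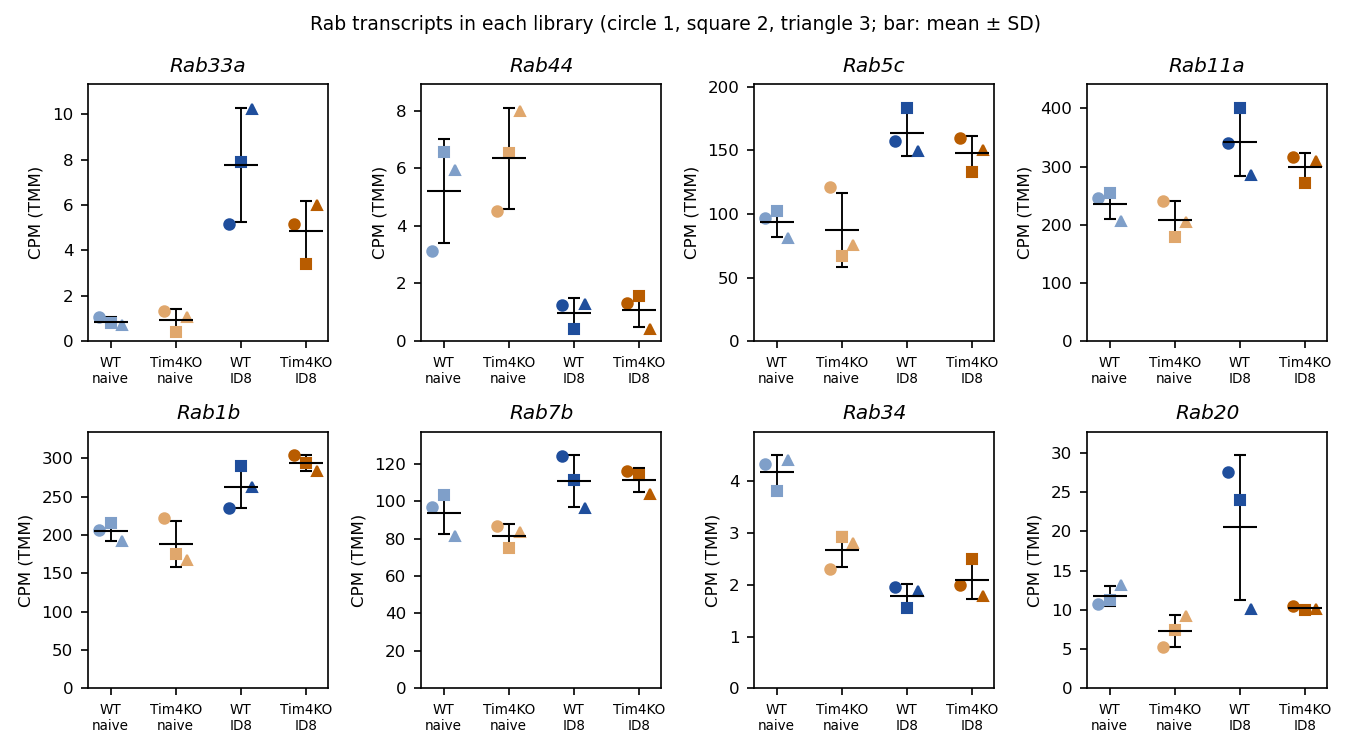
Level of 8 Rab members in each of the 12 libraries, in CPM scaled with TMM factors on linear axes from 0; circles, squares and triangles are libraries 1, 2 and 3 of a group, and lines and bars give the mean and SD. Rab33a and Rab44 separate naive from ID8 libraries in both genotypes, and the Rab20 point of WT ID8 3 (10.1 CPM) lies far below those of WT ID8 1 and 2 (27.5 and 24.0 CPM).

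Recycling held 1 called member, Rab11a, the main Rab of the slow recycling endosome. It stood at 246, 254 and 206 CPM in the naive and 341, 401 and 285 CPM in the ID8 libraries of WT mice, and at 242, 179.5 and 206 CPM in the naive and 317, 271 and 309 CPM in the ID8 libraries of Tim4KO mice. All ID8 libraries were above all naive ones. Its log2 change was 0.54 in WT (SE 0.15, edgeR adjusted p = 0.0145) and 0.52 in Tim4KO (SE 0.15, edgeR adjusted p = 0.0295). The WT call was lost without WT naive 3 (0.48) or WT ID8 2 (0.44), and the Tim4KO call without Tim4KO naive 2 (0.44) or 3 (0.52) or Tim4KO ID8 1 (0.49) or 3 (0.51). Both calls of Rab11a were lost with upper-quartile factors. Its paralog Rab11b had log2 changes of 0.12 and 0.02, neither called. The share of Rab11a in the pair's level per length was 80.7 ± 2.88% in WT naive and 84.7 ± 2.18% in WT ID8, which overlapped.

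Rab10, which recycles membrane from phagosomes and endosomes, was at 235, 242 and 224 CPM in the naive and 304, 385 and 214 CPM in the ID8 libraries of WT mice, and at 265, 247 and 224 CPM in the naive and 257, 254 and 256 CPM in the ID8 libraries of Tim4KO mice. WT ID8 3 was the lowest of all 12 libraries, and the other WT ID8 libraries were the highest. Its WT change of 0.36 (SE 0.16, edgeR adjusted p = 0.0985) was not called, but it was 0.59 (edgeR adjusted p = 0.00392) without WT ID8 3. It was also called without a filter on low counts and with the background covariate.

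Rab4a, of the fast recycling route, was at 7.58, 6.61 and 7.12 CPM in the naive and 6.10, 4.73 and 4.52 CPM in the ID8 libraries of WT mice, and at 7.96, 5.99 and 6.53 CPM in the naive and 5.38, 4.15 and 4.73 CPM in the ID8 libraries of Tim4KO mice. In each genotype the ID8 libraries were below the naive ones. Its log2 changes of -0.48 in WT (edgeR adjusted p = 0.0852) and -0.52 in Tim4KO (edgeR adjusted p = 0.102) were not called. With upper-quartile factors Rab4a was called lower in WT (-0.72, edgeR adjusted p = 0.0196). The other recycling members, Rab4b, Rab12, Rab13, Rab14 and Rab35, had log2 changes of -0.69 to 0.53 in WT and -0.17 to 0.58 in Tim4KO, none called. Rab13 was called in Tim4KO without WT ID8 3 (0.61, edgeR adjusted p = 0.0432) and when only the groups compared were fitted (0.55, edgeR adjusted p = 0.0489). Rab4b was at 1.96 and 1.46 CPM in WT ID8 1 and 2 and at 5.07 in WT ID8 3, and without the last its WT change was -1.46 (edgeR adjusted p = 0.00111).

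The secretory route held the member with the largest change, Rab33a, a Golgi-linked Rab known from brain and cells of the immune system. Rab33a was at 1.08, 0.801 and 0.699 CPM in the naive and 5.18, 7.91 and 10.2 CPM in the ID8 libraries of WT mice, and at 1.31, 0.399 and 1.07 CPM in the naive and 5.15, 3.41 and 5.99 CPM in the ID8 libraries of Tim4KO mice. Every ID8 library was above every naive library. Expressed as log2 change, the difference was 3.20 in WT (SE 0.39, edgeR adjusted p = 4.65e-05), a 9.20-fold higher level, and 2.31 in Tim4KO (SE 0.38, edgeR adjusted p = 0.00104), a 4.96-fold higher level. The counts behind it were 3 to 19 in naive and 37 to 224 in ID8 libraries. In rank by level per length it went from 42 of 47 in WT naive to 28 in WT ID8. Over every alternative and every left-out library it stayed called, between 2.77 and 3.49 in WT and between 2.05 and 2.60 in Tim4KO. Its relative Rab33b, which acts at the Golgi and in autophagy, had log2 changes of -0.39 and -0.42 that were not called. With upper-quartile factors Rab33b was called lower in WT (-0.63, edgeR adjusted p = 0.0186).

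Rab44 moved the other way. It is an unusually large Rab with calcium-binding EF hands, known from granule release in mast cells. Rab44 was at 3.14, 6.54 and 5.94 CPM in the naive and 1.27, 0.430 and 1.28 CPM in the ID8 libraries of WT mice, and at 4.51, 6.52 and 8.00 CPM in the naive and 1.31, 1.57 and 0.403 CPM in the ID8 libraries of Tim4KO mice. All naive libraries were above all ID8 libraries. On the log2 scale the change was -2.38 in WT (SE 0.47, edgeR adjusted p = 0.00189), a 5.19-fold lower level, and -2.58 in Tim4KO (SE 0.47, edgeR adjusted p = 0.00212), a 5.99-fold lower level. It stayed called under every alternative and without any 1 library.

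Mast cell genes, like Rab44, were lower in ID8 than in naive libraries. The 5 listed, Cpa3, Cma1, Mcpt4, Tpsb2 and Kit, summed to 16.1 to 38.8 CPM in naive and 2.19 to 5.93 CPM in ID8 libraries of WT mice, and to 13.2 to 33.3 CPM in naive and 6.17 to 9.45 CPM in ID8 libraries of Tim4KO mice. In WT naive the sum was highest in library 1, at 38.8 CPM, where Rab44 was lowest of that group, at 3.14 CPM. In Tim4KO naive both were highest in library 3, at 33.3 CPM for the sum and 8.00 CPM for Rab44. The lowest sum of that group, 13.2 CPM in library 2, went with 6.52 CPM of Rab44. Cma1, which encodes a mast cell chymase, was at 7.51 ± 2.85 CPM in WT naive and 1.40 ± 0.724 in WT ID8 (SD, n = 3). None of the 5 mast cell genes was at 0 throughout. Their part in the Rab44 result was not tested, and in bulk libraries fewer cells of a type cannot be told apart from less RNA per cell. Neutrophil genes summed to 6.43 to 9.12 CPM in naive against 11.6 to 30.6 CPM in ID8 libraries, with Ly6g at or below 0.23 CPM in all 12. S100a8 made up most of this sum, with means of 5.53 CPM in WT naive and 18.0 in WT ID8. Mpo (0.389 and 0.124 CPM) and Elane (0.498 and 0.0743 CPM) went the other way in WT, at levels near the floor. Markers of small peritoneal macrophages or dendritic cells summed to 68.1 to 88.4 CPM in naive against 45.9 to 55.9 CPM in ID8 libraries of Tim4KO mice, and overlapped in WT mice at 71.0 to 94.6 and 26.7 to 71.5 CPM. Its genes did not move as one in WT. Cd209a went from 34.5 ± 8.69 to 4.92 ± 1.70 CPM and Mgl2 from 7.84 ± 1.22 to 16.3 ± 9.83 CPM (SD, n = 3). Ccr2 was at 9.99 ± 5.72 and 10.1 ± 6.79 CPM. B cell genes summed to 8.03 to 13.7 CPM in naive against 2.15 to 6.68 CPM in ID8 libraries of WT, and to 6.13 to 8.12 against 3.69 to 4.52 CPM in those of Tim4KO, without overlap. The part of these cells in the Rab results was not tested.

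The Rab1 pair carries vesicles from the endoplasmic reticulum to the Golgi. Rab1a was at 258, 288 and 242 CPM in the naive and 391, 477 and 329.5 CPM in the ID8 libraries of WT mice, and at 303, 241 and 234 CPM in the naive and 324, 305 and 317 CPM in the ID8 libraries of Tim4KO mice. Rab1b was at 207, 216 and 192 CPM in the naive and 236, 290.2 and 263 CPM in the ID8 libraries of WT mice, and at 223, 176 and 167 CPM in the naive and 304, 295 and 284 CPM in the ID8 libraries of Tim4KO mice. For both genes, every ID8 library was above every naive library of its genotype. Rab1a was called higher in WT (0.60, SE 0.15, edgeR adjusted p = 0.00657) and not in Tim4KO (0.28, SE 0.15, edgeR adjusted p = 0.215). Rab1b was called higher in Tim4KO (0.64, SE 0.13, edgeR adjusted p = 0.00401) and narrowly in WT (0.36, SE 0.13, edgeR adjusted p = 0.0471), where 7 of 8 other settings did not call it. Leaving out WT naive 1, 2 or 3 or WT ID8 2 or 3 also ended that WT call, at changes of 0.32 to 0.44. So did leaving out any 1 of the Tim4KO ID8 libraries, and the call held in 4 of 12 such fits. Rab1a held 47.4 ± 3.95% of the pair's level per length in WT ID8 and 39 ± 0.922% in Tim4KO ID8 with no overlap. In naive cells it held 43.4 ± 0.912% in WT and 45.2 ± 0.422% in Tim4KO, also with no overlap but in the opposite direction. WT ID8 3, at the low end of its group, lay within the WT naive range. The interaction was -0.32 for Rab1a and 0.28 for Rab1b (edgeR adjusted p = 0.714 for each), so neither gene's response was called different.

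Rab6 proteins act within the Golgi and on its way back to the endoplasmic reticulum, and the Rab6 pair shifted towards Rab6a. Rab6a was at 124, 132 and 114 CPM in WT naive and 191, 218 and 126 in WT ID8, overlapping through WT ID8 3, and Rab6b was at 16.1, 23.2 and 29.6 in WT naive and 13.3, 15.1 and 7.85 in WT ID8, without overlap. Rab6a was called higher (0.53, SE 0.16, edgeR adjusted p = 0.0241) and Rab6b lower (-0.95, SE 0.24, edgeR adjusted p = 0.00877) in WT. The Rab6b call was lost with the background covariate (-0.72, edgeR adjusted p = 0.0984). In Tim4KO their changes of 0.12 and -0.56 were not called, but Rab6b was called lower when only the Tim4KO libraries were fitted (-0.59, edgeR adjusted p = 0.00840) and without WT ID8 3 (-0.54, edgeR adjusted p = 0.0313). The share of Rab6a in the pair's level per length went from 87.8 ± 3.71% to 95.3 ± 0.288% with ID8 in WT mice and from 86.6 ± 1.56% to 91.3 ± 0.528% in Tim4KO mice. Without WT naive 1, WT naive 3 or WT ID8 2 the Rab6a call was lost (0.54, 0.51 and 0.39), and without WT naive 3 that of Rab6b (-0.69). Exons of Rab6a overlap those of Mrpl48 on the opposite strand.

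Rab27a and Rab8a bring secretory vesicles to the plasma membrane, Rab27a with lysosome-related organelles and exosomes as its cargo. Rab27a was at 207, 215 and 199 CPM in WT naive and 274, 310.2 and 314 in WT ID8, without overlap, a log2 change of 0.53 (SE 0.13, edgeR adjusted p = 0.00534). In Tim4KO it went from 251, 207 and 185 to 284, 260.4 and 274 CPM, also without overlap, and its change of 0.35 was not called (edgeR adjusted p = 0.0714), except without Tim4KO naive 1 (0.50, edgeR adjusted p = 0.0145). Rab8a was called in WT at 0.34 (SE 0.12, edgeR adjusted p = 0.0476), with 142 ± 2.15 CPM in WT naive and 179.5 ± 18.4 in WT ID8 (SD, n = 3). That call held in 1 of 8 other settings and in 3 of 12 fits with 1 library left out. Leaving out WT naive 1, 2 or 3 or WT ID8 2 or 3 ended it, at changes of 0.29 to 0.38. So did leaving out Tim4KO naive 2 or any 1 of the Tim4KO ID8 libraries. In the main test the other secretory members were not called in either genotype. Among them were Rab2a, Rab18, Rab19 and the Rab3 genes of regulated exocytosis. Other settings that kept all libraries did call some of them. Rab2b was called lower in WT with upper-quartile factors (-1.09, edgeR adjusted p = 0.0294). Rab19 was called lower in Tim4KO with the background covariate (-0.59, edgeR adjusted p = 0.0464). Rab3c was called lower in WT (-1.80, edgeR adjusted p = 0.0269) when low-count genes were not removed. Without WT ID8 3, however, Rab3d was called lower in WT (-0.58 against -0.23, edgeR adjusted p = 0.00802) and Rab8b higher (0.55 against 0.40, edgeR adjusted p = 0.0191), and with the background covariate Rab3d was at -0.76 (edgeR adjusted p = 0.0182). Rab8b was also called without WT ID8 1 (0.59, edgeR adjusted p = 0.0167) and with no filter on low counts (0.51, edgeR adjusted p = 0.0107). Rab3c and Rab30, with 0 to 4.44 CPM, had the widest errors of all members, with SE of 0.95 and 0.97 in WT. Without WT ID8 1 both were called lower in WT, at -3.20 and -3.18, and Rab8b was called higher at 0.59.

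Of the members outside the 4 routes, Rab40c was called lower in WT. Rab40 proteins carry a SOCS box and work in ubiquitin ligases with cullin 5. Rab40c was at 32.7, 36.0 and 27.8 CPM in the naive and 18.6, 17.0 and 20.5 CPM in the ID8 libraries of WT mice, and at 21.9, 21.8 and 31.6 CPM in the naive and 27.1, 22.4 and 25 CPM in the ID8 libraries of Tim4KO mice. WT ID8 was below every other library. The log2 change was -0.78 in WT (SE 0.17, edgeR adjusted p = 0.00288) and -0.02 in Tim4KO (SE 0.16, edgeR adjusted p = 0.941). The interaction of 0.75 (SE 0.23, unadjusted p = 0.00545) had the smallest p of any member by edgeR and did not pass over all genes (adjusted p = 0.668). Its exons overlap the antisense gene Gm16278.

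Its relative Rab40b was at 1.73, 1.14 and 1.61 CPM in the naive and 0.575, 0.344 and 0.913 CPM in the ID8 libraries of WT mice, and at 0.656, 0.399 and 0.620 CPM in the naive and 0.769, 0.831 and 1.04 CPM in the ID8 libraries of Tim4KO mice. WT naive was above the other 3 groups. The log2 changes of -1.22 in WT (SE 0.53, edgeR adjusted p = 0.0857) and 0.62 in Tim4KO (SE 0.54, edgeR adjusted p = 0.484) were not called, and the level rests on 3 to 23 counts per library. With upper-quartile factors Rab40b was called lower in WT (-1.47, edgeR adjusted p = 0.046). Rab23, an inhibitor of hedgehog signalling, was at 4.55, 2.94 and 4.19 CPM in the naive and 4.60, 5.16 and 4.97 CPM in the ID8 libraries of WT mice, and at 3.61, 3.73 and 3.77 CPM in the naive and 4.07, 5.91 and 5.76 CPM in the ID8 libraries of Tim4KO mice. Its ID8 libraries were above the naive ones in each genotype, but its changes of 0.34 and 0.50 were not called. Rab28, of cilia, had changes of 0.13 and 0.08.

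The genotype comparisons asked whether Rab transcripts differed when Tim4 was missing. No member was called in naive cells, where 7 of 15943 genes were (0.0439%, with 0.0251% higher in Tim4KO and 0.0188% lower), nor in ID8 cells, where 9 genes were (0.0565%, with 0.00627% higher and 0.0502% lower). DESeq2 also called 0 members in each, of 52 and 265 genes. At an unadjusted p under 0.05 by edgeR, 4 members passed in naive cells (8.51% against 6.27% of all genes) and 6 in ID8 cells (12.8% against 12.1%). In naive cells these were Rab40b (-1.36), Rab34 (-0.64), Rab20 (-0.68) and Rab40c (-0.35), all lower in Tim4KO and all with an edgeR adjusted p of at least 0.732. In ID8 cells they were Rab20 (-0.99), Rab6a (-0.40) and Rab1a (-0.34), lower in Tim4KO, and Rab3a (0.70), Rab6b (0.55) and Rab40c (0.40), higher. Their edgeR adjusted p was at least 0.251. Groups without overlap were seen in naive cells for 1 member higher and 4 lower in Tim4KO, beside 7.34% and 6.84% of all genes. In ID8 cells this held for 2 members higher and 1 lower, Rab1a, beside 7.06% and 8.56% of all genes.

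The count in ID8 cells changed without WT ID8 3. Then 997 genes were called between the genotypes in ID8 cells, and 4 members were among them by edgeR: Rab20 (-1.33, adjusted p = 0.000170), Rab6a (-0.60, adjusted p = 0.0166), Rab4b (1.30, adjusted p = 0.0172) and Rab3d (0.62, adjusted p = 0.0227). Rab20 was also called, at -1.02 (edgeR adjusted p = 0.00221), among 264 genes when no low-count filter was used, and at -1.20 (edgeR adjusted p = 0.0224) among 179 genes with the covariate for background. Rab3d, of regulated exocytosis, was at 43.0 and 49.7 CPM in WT ID8 1 and 2, at 87.4 in WT ID8 3 and between 68.2 and 73.9 in Tim4KO ID8. Rab4b exons overlap those of Gm21983 on the same strand, and reads of the 2 genes may have been divided.

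The interaction asked whether the challenge response differed between the genotypes. It was called for 0 members and 0 genes by edgeR. DESeq2 called 0 members and 11 genes. At an unadjusted p under 0.05 by edgeR 4 members passed, Rab40c, Rab40b, Rab32 and Rab34, which was 8.51% against 7.44% of all genes. Without WT ID8 3, 368 genes and 1 member were called: Rab4b, at 1.57 (SE 0.42, edgeR adjusted p = 0.0422). For the members called in WT or in Tim4KO alone, a different response was not shown.

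Regulators and effectors of Rab proteins were taken as 9 lists of 166 genes, of which 165 were in the table and 161 were tested. In WT 52 were called, 32 higher and 20 lower, which was 32.3% against 31.8% of all genes. In Tim4KO 25 were called, 17 higher and 8 lower, or 15.5% against 16.6% of all genes, so the lists as a whole were near the background. Their median log2 change was 0.11 in WT and 0.05 in Tim4KO, beside -0.04 and -0.05 for all genes tested. With upper-quartile factors 12 were called higher and 38 lower in WT, and 11 higher and 18 lower in Tim4KO. None was called between the genotypes or for the interaction by edgeR, although 10 were in ID8 cells without WT ID8 3. DESeq2 called 2 in ID8 cells, as did the fit with the background covariate.

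**Figure D5:**
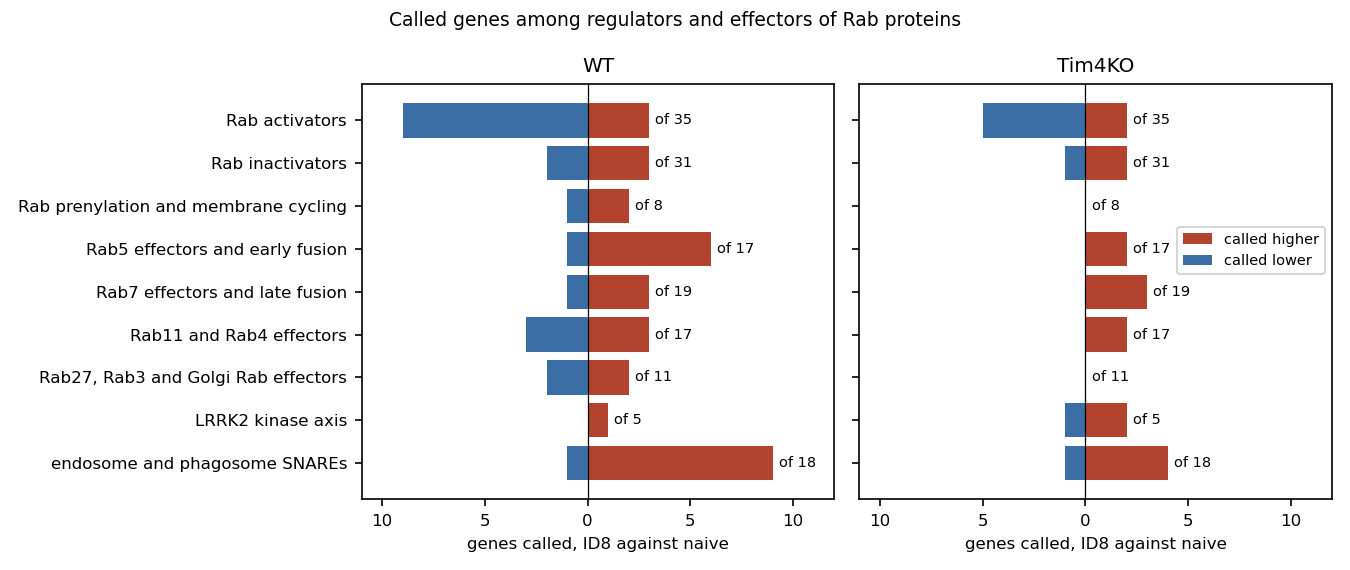
Number of genes called higher (red, to the right of 0) and lower (blue, to the left) after ID8 challenge in each of 9 lists of Rab regulators and effectors, in WT and Tim4KO, with the number tested beside each bar. The activators have more genes lower than higher (9 against 3 in WT), and the SNARE list has more higher than lower (9 against 1), a split that upper-quartile factors turned to 3 against 3.

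The share of each list that was called is read against all genes, of which 19.5% were called higher and 12.3% lower in WT, and 11.5% and 5.06% in Tim4KO. Of 35 activators, the exchange factors and their subunits, 3 were called higher (8.57%) and 9 lower (25.7%) in WT and 2 higher (5.71%) and 5 lower (14.3%) in Tim4KO. Upper-quartile factors gave 1 and 11 in WT. Within them, exchange factors for Rab5 went in opposite directions. Rin2 went from 386 ± 4.55 to 169.6 ± 14.5 CPM in WT (log2 change -1.19, SE 0.14, edgeR adjusted p = 3.24e-05) and fell by 1.0 on the log2 scale in Tim4KO. Rin1 rose from 1.42 ± 0.336 to 6.03 ± 2.45 CPM in WT (2.05, SE 0.37, edgeR adjusted p = 0.000878) and by 2.17 on the log2 scale in Tim4KO. Dennd4a, an exchange factor for Rab10, fell by 0.99 and 0.56. Of 31 tested inactivators, the GTPase-activating proteins, 3 were higher (9.68%) and 2 lower (6.45%) in WT and 2 higher and 1 lower (6.45% and 3.23%) in Tim4KO, against 2 and 8 in WT and 1 and 4 in Tim4KO with upper-quartile factors. Tbc1d2, which acts on Rab7, rose by 1.72 in WT and 1.69 in Tim4KO, from 2.29 ± 0.383 to 7.45 ± 1.32 CPM in WT (edgeR adjusted p = 0.000198). Tbc1d10b rose by 0.66 in WT, and Rabgap1l fell by 0.64 and 0.53.

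Of 8 genes for prenylation and membrane cycling, Gdi2 and Rabggtb were called higher in WT (0.36 and 0.42), 25% of the list, and Rabac1 lower (-0.44), 12.5%. Gdi2 extracts Rab proteins from membranes, and Rabggtb is a subunit of the prenylating enzyme. None of the 8 was called in Tim4KO. With upper-quartile factors 0 of the 8 were higher and 2 lower in WT. Of 17 Rab5 effectors and early fusion factors, 6 were called higher (35.3%) and 1 lower (5.88%) in WT and 2 higher (11.8%) in Tim4KO. However, upper-quartile factors gave 1 higher and 2 lower in each genotype. Vac14, the scaffold of the kinase complex that makes the lipid of late endosomes, went from 39.5 ± 1.47 to 83.9 ± 10.5 CPM in WT (1.09, SE 0.14, edgeR adjusted p = 6.78e-05) and rose by 0.93 in Tim4KO. Eea1, the tether of early endosomes, rose by 0.54 and Inpp5b by 0.59 in WT.

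Of 19 Rab7 effectors and late fusion factors, 3 were called higher (15.8%) and 1 lower (5.26%) in WT and 3 higher (15.8%) in Tim4KO. With upper-quartile factors 2 were higher and 3 lower in WT, and 1 higher and 2 lower in Tim4KO. Rmc1, a subunit of the Rab7 exchange factor with Mon1 and Ccz1, rose by 0.95 and 0.43, and Vps29 of the retromer by 0.69 and 0.58. Fyco1, which links Rab7 to kinesin, fell by 0.53 in WT. Of 17 Rab11 and Rab4 effectors, 3 were called higher and 3 lower in WT (17.6% each) and 2 higher (11.8%) in Tim4KO. Upper-quartile factors gave 2 higher and 5 lower in WT. The motor Myo5a rose by 0.72 and 0.56 and Rab11fip1 by 0.73 and 0.66, while Myo5b, at 1.03 CPM in WT naive, fell by 2.28 in WT. Of 11 tested effectors of Rab27, Rab3 and Golgi Rabs, 2 were called higher and 2 lower in WT (18.2% each). With upper-quartile factors this was 0 and 3, and none was called in Tim4KO. Bicd1 fell by 2.40 and Mlph by 1.18, and Uso1, a tether for Rab1, rose by 0.56.

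The kinase Lrrk2, which phosphorylates several Rab proteins, went from 63.6 ± 13.5 to 151 ± 32.8 CPM in WT (1.24, SE 0.17, edgeR adjusted p = 0.000112) and from 63.0 ± 3.38 to 134 CPM in Tim4KO (1.09, SE 0.17, edgeR adjusted p = 0.000621). It was the 1 of 5 genes of its list (20%) called in WT. In Tim4KO, where 2 were higher and 1 lower (40% and 20%), the list also held Rilpl2, higher by 0.59, and the phosphatase Ppm1h, lower by 0.44. Of 18 SNAREs and their handlers, 9 were called higher (50%) and 1 lower (5.56%) in WT and 4 higher (22.2%) and 1 lower (5.56%) in Tim4KO. The WT split was 5 and 2 with RLE factors and 3 and 3 with upper-quartile factors, so it depended on the scaling. Nsf, which takes spent SNARE complexes apart, went from 95.3 ± 16.3 to 186 ± 19.7 CPM in WT (0.96, SE 0.14, edgeR adjusted p = 0.000178) and rose by 0.74 in Tim4KO. Ykt6 rose by 0.69 and 0.54, and Stx12 by 0.63 in WT.

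The 12 matching genes below the minimum were at 0 to 27 counts in any library. Among them Rab25 and Rab17, which are typical of epithelial cells, had at most 11 and 7 counts. Rab27b made up 0.169 ± 0.138% of the level per length of Rab27a and Rab27b together in WT naive, and Rab38 0.298 ± 0.110% of that of Rab32 and Rab38. Of 4 Rab pseudogenes in the table, Rab11b-ps2 had the most counts, a mean of 17.7 per library against 1579 for Rab11b.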

How the data were processed

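Gene-level raw read counts of 12 mouse libraries, 3 in each of 4 groups, were used as deposited. Reads were checked with FastQC and aligned with STAR 2.5, per the submitters' processing notes, which name the builds mm10 and GRCm39 (mm10 alone for 1 library). The counter, the annotation and the use of strand are not given in the sources used here. Libraries were made with a SMART-Seq mRNA LP kit, per the labels' protocols. All 12 value columns matched a library, and 0 columns did not.

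Symbols, biotypes and exonic lengths were taken from GENCODE vM21 by identifier. The main test was edgeR 4.0.16 (limma 3.58.1, R 4.3.3): TMM factors, filterByExpr, 1 mean per group over all 12 libraries and the robust quasi-likelihood F test, with Benjamini-Hochberg adjustment over 15943 genes and a threshold of 0.05. The same steps were tested on simulated data. Other settings were DESeq2 1.42.0, RLE and upper-quartile factors, no low-count filter, only the groups compared, a replicate block, a background covariate, a member minimum of 50 and leaving out each library. The blocked fit of the WT libraries alone was chosen after seeing the data. That fit used the replicate number as a block because deviations of same-numbered WT naive and WT ID8 libraries were positively correlated (0.32, 0.139 and 0.25). The labels do not say that the numbers pair libraries, and correlations between differently numbered libraries were not computed. Same-numbered WT naive and Tim4KO naive libraries had correlations of 0.119, 0.147 and 0.0363. Other same-numbered sets went the other way. WT naive and Tim4KO ID8 had correlations of -0.384, -0.232 and -0.0318, and WT ID8 and Tim4KO ID8 of -0.301, 0.0267 and -0.117. The positive values in WT therefore do not show pairing. The main test did not use the numbers, and besides that fit only the block over all 4 groups did.

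The members and the lists were chosen with earlier results of these data known. Values in every library were given for members called with a log2 change of at least 1 and for the 3 with the smallest p per route. Up to 3 called genes per list were named, by smallest p. Rab1a, Rab6a, Rab6b, Rab8a, Rab24, Rab27a, Rab9, Rab3d and Rab4b were described per library after their values were seen.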

Additional observations from a re-analysis of the deposited data

Results flagged for a closer look

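Rab40b, a low member with 3 to 23 counts per library, was singled out because its libraries moved in opposite directions in the 2 genotypes. Every WT ID8 library was below every WT naive library, and every Tim4KO ID8 library was above every Tim4KO naive library. The difference between the responses was 1.84 on the log2 scale (SE 0.76), and edgeR's test of it gave an adjusted p of 0.668 over all genes, so the difference was not called.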

How the results depend on the processing

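No called Rab gene reversed under any setting. Of the 14 members called in WT, 9 were called when only the WT libraries were fitted (4 higher, 5 lower) and 7 with that fit and the replicate block, against 12 with the block over all 4 groups. Leaving out a library gave 8 (without WT naive 3) to 18 (without WT ID8 3), and 9 without WT ID8 2. Of the 6 called in Tim4KO, 6 were called with the block, and leaving out a library gave 3 to 8, with 3 without Tim4KO naive 2, Tim4KO naive 3 or Tim4KO ID8 1. Between the genotypes in ID8 cells, where 0 were called, 1 member was called without a low-count filter, 1 with the background covariate, and 0 to 4 when a library was left out. For the interaction this range was 0 to 1, and in naive cells 0 members were called in every setting. The fit to the Tim4KO libraries alone called 6 members higher and 2 lower after ID8. The causes of these changes were not tested. Rab33a, Rab5c, Rab1a, Rab40c and Rab44 were called in WT, and Rab33a, Rab1b and Rab44 in Tim4KO, under every setting and without any 1 library.

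Upper-quartile factors turned the split of WT calls from 9 higher and 5 lower to 3 and 11. Over all genes, 61.3% of the WT calls were higher, and 33.9% with those factors. The number of genes called moved from 5067 in WT to 3102 when only the WT libraries were fitted and to 3081 with their block, and from 7 in naive and 9 in ID8 cells between the genotypes to 52 and 265 with DESeq2. The replicate block changed no other call count by more than 1.5 times among the members. Members with few reads, such as Rab40b with 3 counts in its lowest library, are limited by depth.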
